A study of Mus musculus with 6 samples.

Results

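The genes described here are 10 genes that mark the red pulp macrophages of the spleen or carry out their recycling of iron: Spic, Vcam1, Hmox1, Slc40a1, Cd163, Axl, C1qa, C1qb, C1qc and Fth1. They were taken by symbol from the 44678 Ensembl genes of the count tables, each symbol matched 1 gene, and all 10 passed the filter on low counts. On GRCm38 the genes other than those of C1q lie at chr10:88674772-88685015 (Spic, minus strand), chr3:116109949-116129688 (Vcam1, minus), chr8:75093621-75100589 (Hmox1, plus), chr1:45908068-45926523 (Slc40a1, minus), chr6:124304656-124330527 (Cd163, plus), chr7:25757273-25788705 (Axl, minus) and chr19:9980598-9985098 (Fth1, plus). The data are 6 RNA-seq libraries, 3 from wild type (WT) mice and 3 from miR-144 and miR-451 knockout (KO) mice, which lack a short genomic segment with the precursors of both microRNAs. Per the labels, all of the libraries came from untreated CD8a+ leukocytes of the spleen, and per the study's methods the mice were young adults on a C57BL/6J background. The sex of these mice, and whether the libraries of a genotype came from separate mice, is not given in the sources used here, so that p-values measure only the spread between libraries.

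Red pulp macrophages take up old and damaged red blood cells, break down the heme of hemoglobin, and either store the iron in ferritin or return it to the blood. Heme itself drives their differentiation, because it causes the loss of the repressor BACH1 and so releases Spic, the transcription factor that this lineage needs. The deleted microRNAs are best known from erythroid cells, and their loss makes red blood cells sensitive to oxidative damage. The study's methods describe magnetic bead sorting of CD8+ T cells. Whether the CD8a+ cells of these libraries were selected in that way is not given in the sources used here. The genes of red pulp macrophages, which are not known for CD8a, are read here in libraries in which T cell genes were abundant. In such a bulk sample, fewer cells of a type and less RNA per cell cannot be told apart.

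The sequences of the deleted microRNAs are shown because the seed, bases 2 to 8 counted from the 5′ end and given in capitals, is what pairs with target transcripts. They are RefSeq sequences on GRCm38.p6, all on the plus strand of chromosome 11.
mmu-miR-144-5p: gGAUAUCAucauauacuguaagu
mmu-miR-144-3p: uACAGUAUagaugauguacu
mmu-miR-451a: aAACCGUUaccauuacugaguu
The 3 seeds differ from each other. The longest annotated 3′-UTR of each of the 10 genes (GENCODE M21, GRCm38) was searched for the 7-mer complementary to each seed, on the transcript strand. No match to the miR-144-3p seed (ATACTGT) or the miR-451a seed (AACGGTT) was found, against 11.89% and 1.75% of the 21074 genes searched. The match to the miR-144-5p seed (TGATATC) was found once each in Hmox1 and Slc40a1, and in 6.09% of all genes. Both sites are shown with the match in capitals.
Hmox1, chr8:75100358-75100386, plus strand, exon 5: catggccacttTGATATCcgtttccagac
Slc40a1, chr1:45908073-45908101, minus strand, exon 8: taaaaagtgttTGATATCatcatcgccct
A 7-mer match describes the letters and does not show that the transcript is a target.

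Iron control of translation has its own signal in 2 of the 10 transcripts. The iron-responsive element is a hairpin with the loop CAGTGN in the 5′-UTR, where iron regulatory proteins bind when iron is scarce and hold back translation. The loop, with 5 paired bases on either side and an unpaired C before the upstream paired bases, was searched on the transcript strand in the 5′-UTRs of 20937 genes and was found in 28 (0.134%). Slc40a1 and Fth1 were among them, as were Ftl1 and Alas2 of the other iron, heme and erythroid genes listed. The loops are in capitals.
Slc40a1, chr1:45925464-45925493, minus strand, exon 1: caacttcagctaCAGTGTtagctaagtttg
Fth1, chr19:9982732-9982761, plus strand, exon 2: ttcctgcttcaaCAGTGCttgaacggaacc
Counts of RNA do not show translation, so the element is given here only to show what the exporter and the storage protein have in common.

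The libraries held between 8143971 and 8876570 counts. A total of 3 counts, taken as the detection floor for counting error, came to between 0.338 and 0.368 CPM, the count divided by the library total and multiplied by 1000000. The deleted precursors Mir144 and Mir451a were at 0 counts in all 6 libraries and give no check of the labels. Over all 13024 genes tested, 4 had an adjusted p-value under 0.05 (0.0307%), and for these 4 genes the KO libraries, replicate 3 included, did not overlap the WT libraries. They were called with KO replicate 3 in the fit, so this gives no check of its label either. KO replicate 3 stood apart from the other KO libraries for the 10 genes, so each of them is given with and without it. As this was decided from the values of these genes, the p-values without it depend on the choice and only describe the other libraries. Cd8a reached 692, 1028 and 967 CPM in WT and 696, 481 and 1023 CPM in KO replicates 1 to 3.

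As a group, the 10 genes were higher in KO replicates 1 and 2 than in any WT library, while KO replicate 3 lay close to the WT libraries. KO replicate 2 was highest and KO replicate 1 second for each of the 10 genes, and KO replicate 3 was the lowest KO library for each. For 9 of the 10 genes, Fth1 being the exception, both KO replicates 1 and 2 were at least 1.5 times the highest WT library, which was so for 2.14% of all genes tested. KO replicate 3 lay within the WT range for 6 of the 10 genes, above it for Slc40a1 and Axl and below it for C1qa and Fth1, and 52.3% of all genes lay within the range in this library. None of the 10 genes passed an adjusted p-value of 0.05 with all 6 libraries (edgeR's quasi-likelihood test, Benjamini-Hochberg adjustment, adjusted p from 0.427 to 0.851). The unadjusted p-value was under 0.05 for 8 of 10, all higher in KO, whereas 4.14% of all genes tested were higher in KO at that level. Without KO replicate 3, 8 of 10 passed the adjusted threshold, all higher in KO, against 0.647% of all genes. That library was singled out by its values for these same genes, so these calls depend on the choice and are no separate support. The fits without any other single library called 0 of 10. DESeq2 with all 6 libraries called 2 of 10, Slc40a1 and Cd163, against 0.423% of all genes called higher, and limma voom called 0 of 10.

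**Figure D1:**
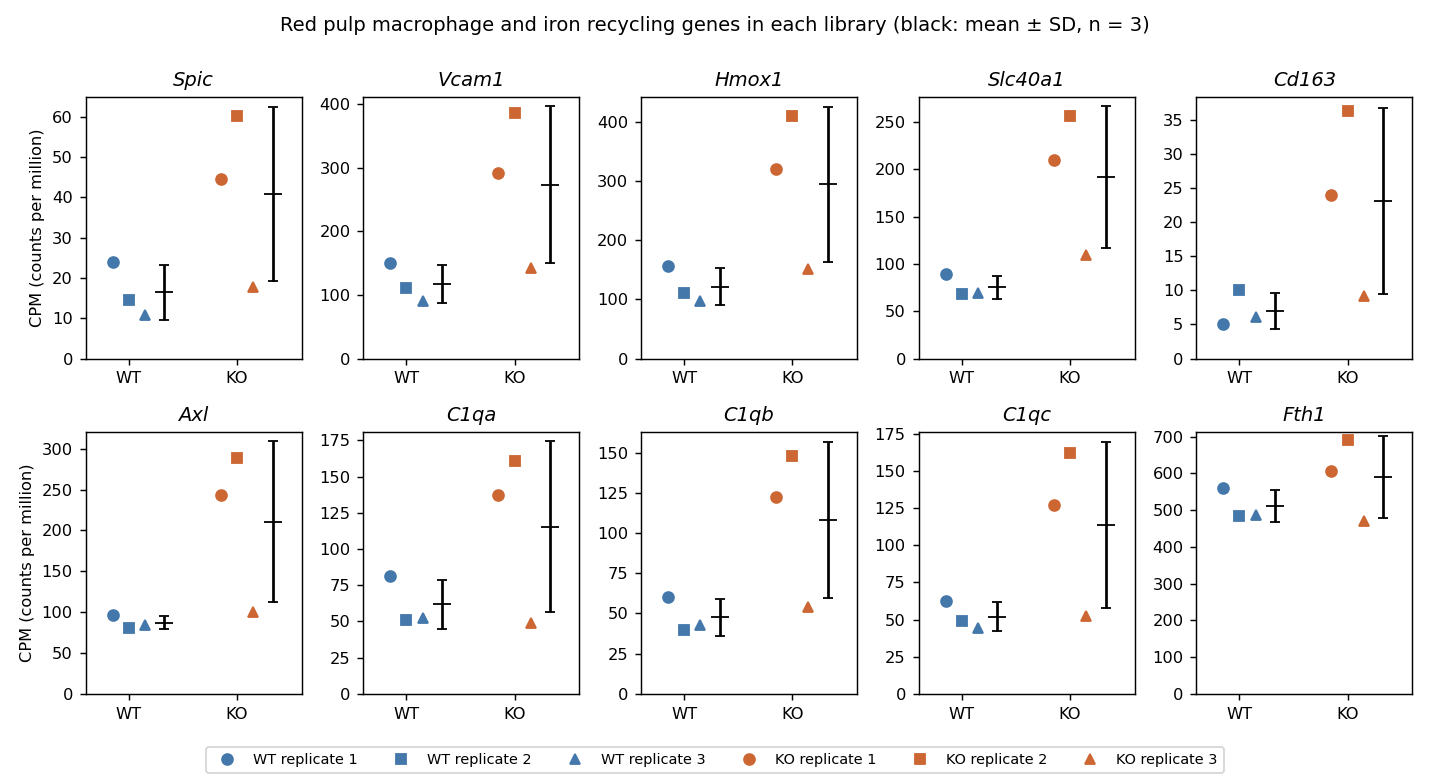
CPM of the 10 genes (y axes, starting at 0) in the 3 WT and 3 KO libraries, with the symbol giving the replicate number and black bars giving the mean and SD of each genotype. KO replicates 1 and 2 are the top points of every panel and KO replicate 3 is the lowest KO point, near the WT points.

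Spic encodes the transcription factor that defines red pulp macrophages. Its level was 24.0, 14.4 and 10.8 CPM in WT replicates 1 to 3 and 44.6, 60.1 and 17.6 CPM in KO replicates 1 to 3. The ranges overlapped, because KO replicate 3 lay below WT replicate 1. Between genotypes Spic differed by a log2 fold change of 1.29 (SE 0.44, 95% interval 0.28 to 2.29, adjusted p = 0.727, edgeR), and without KO replicate 3 it was 1.62 (adjusted p = 0.0612, edgeR). Per kb of exon Spic was the least abundant of the 10 genes after Cd163, and its counts lay between 88 and 495 per library. Of the 31-base words in its transcripts, 12.9% also occur in transcripts of other genes, where the authors' counting could divide reads.

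Vcam1 encodes an adhesion molecule that binds integrins on leukocytes and is a surface mark of red pulp macrophages, though stromal and endothelial cells also carry it. It reached 150, 111 and 91.1 CPM in WT and 292, 386 and 142 CPM in KO replicates 1 to 3. Again KO replicate 3 lay below WT replicate 1, while KO replicates 1 and 2 were at least 1.95 times as high as any WT library. For Vcam1 the estimate was 1.20 on the log2 scale (SE 0.33, 95% interval 0.44 to 1.96, adjusted p = 0.624, edgeR), and 1.48 without KO replicate 3 (adjusted p = 0.0224, edgeR). The markers of stromal and endothelial cells summed to between 137 and 148 CPM in WT and between 137 and 168 CPM in KO libraries, nearly all of it Pecam1, which leukocytes also express. Cdh5, Col1a1, Col1a2, Pdgfra, Pdgfrb, Cxcl12 and Ccl21a, the other 7 of the 8 markers, had at most 19 counts in any library. An exon of Gm43109 on the opposite strand covers 1.22% of the exon bases of Vcam1.

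Hmox1 encodes heme oxygenase 1, which opens the heme ring and frees its iron. It reached 157, 110 and 96.6 CPM in WT and 321, 411 and 152 CPM in KO replicates 1 to 3. The order of the 6 libraries was that of Vcam1 and Spic. The estimate for Hmox1 was 1.26 on the log2 scale (SE 0.33, 95% interval 0.49 to 2.02, adjusted p = 0.610, edgeR), and 1.54 without KO replicate 3 (adjusted p = 0.0189, edgeR).

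Slc40a1 encodes ferroportin, the iron exporter through which recycled iron leaves the macrophage. It reached 89.5, 67.9 and 68.9 CPM in WT and 209, 256 and 110 CPM in KO replicates 1 to 3. Here the ranges did not overlap, with KO replicate 3 also above each WT library, as was the case for 2 of the 10 genes (Slc40a1 and Axl) against 6.71% of all genes tested. Slc40a1 differed by 1.32 on the log2 scale (SE 0.28, 95% interval 0.69 to 1.96, adjusted p = 0.427, edgeR), the smallest adjusted p-value among the 10 genes. Without KO replicate 3 it was 1.58 (adjusted p = 0.00634, edgeR), and with DESeq2 and all libraries it was 1.32 (adjusted p = 0.000169, DESeq2).

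Both receptors for uptake were also highest in KO replicates 1 and 2. Cd163 encodes the receptor for hemoglobin bound to haptoglobin, and reached 5.01, 10.03 and 6.02 CPM in WT and 24.0, 36.3 and 9.10 CPM in KO replicates 1 to 3. It had the largest fold change and, per kb of exon, the lowest level of the 10 genes, with 44 to 89 counts in WT libraries, and was the only one of the 10 in which WT replicate 2 was the highest WT library. The estimate for Cd163 was 1.69 on the log2 scale (SE 0.48, 95% interval 0.59 to 2.79, adjusted p = 0.653, edgeR), 2.05 without KO replicate 3 (adjusted p = 0.0318, edgeR), and 1.69 with DESeq2 and all libraries (adjusted p = 0.0209, DESeq2). Axl, a receptor tyrosine kinase that binds apoptotic cells through its ligand GAS6, reached 96.5, 80.9 and 84.4 CPM in WT and 243, 289 and 100 CPM in KO replicates 1 to 3. The ranges of Axl did not overlap, but KO replicate 3 exceeded WT replicate 1 by less than the SD of the WT libraries, 8.18 CPM. Its estimate was 1.25 on the log2 scale (SE 0.33, 95% interval 0.50 to 2.0, adjusted p = 0.597, edgeR), and 1.56 without KO replicate 3 (adjusted p = 0.00241, edgeR), the smallest adjusted p-value of the 10 in that fit.

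C1qa, C1qb and C1qc encode the chains of C1q, the complement component that binds dying cells and immune complexes, and lie side by side on chromosome 4 (136880129 to 136898803, minus strand, GRCm38). C1qa reached 81.6, 51.3 and 52.7 CPM in WT and 137, 160 and 48.9 CPM in KO replicates 1 to 3, so that KO replicate 3 was the lowest of all 6 libraries. C1qb reached 60.5, 39.5 and 42.6 CPM in WT and 122, 148 and 53.8 CPM in KO replicates 1 to 3. C1qc reached 62.7, 48.9 and 44.3 CPM in WT and 127, 162 and 52.4 CPM in KO replicates 1 to 3. For each chain the 2 genotypes overlapped through KO replicate 3. The log2 fold changes were 0.88, 1.16 and 1.11 for C1qa, C1qb and C1qc, with standard errors of 0.39, 0.34 and 0.35 (adjusted p = 0.786, 0.659 and 0.712, edgeR). Without KO replicate 3 they were 1.22, 1.46 and 1.43 (adjusted p = 0.0363, 0.0148 and 0.00962, edgeR), and without KO replicate 2 they were 0.57, 0.87 and 0.77 (adjusted p = 1.0 for each, edgeR). The chains assemble in equal numbers in the protein, and their levels per kb of exon were of like size, 59.5 ± 16.4, 43.7 ± 10.4 and 43.2 ± 7.94 CPM per kb (SD, n = 3) in WT. The ratio of C1qb to C1qa was 0.742, 0.770 and 0.809 in WT and 0.894, 0.922 and 1.10 in KO replicates 1 to 3, without overlap, and the ratio of C1qc to C1qa overlapped. These ratios were looked at after the values were seen and were not tested.

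Fth1 encodes the heavy chain of ferritin, which stores iron in nearly all cells, and it was the most abundant of the 10 genes per length, at 328 ± 28.0 CPM per kb (SD, n = 3) in WT. It reached 561, 484 and 488 CPM in WT and 607, 691 and 470 CPM in KO replicates 1 to 3. The order of the libraries was the same as for C1qa, but the differences were small, with KO replicate 2 at 1.35 times the WT mean. For Fth1 the estimate was 0.19 on the log2 scale (SE 0.14, 95% interval -0.14 to 0.51, adjusted p = 0.851, edgeR), 0.30 without KO replicate 3 (adjusted p = 0.314, edgeR) and 0.058 without KO replicate 2 (adjusted p = 1.0, edgeR). The interval leaves out the fold changes estimated for the other 9 genes, of which C1qa had the smallest. Transcripts of other genes, Gm6977 most of all, hold 7.6% of the 31-base words of Fth1. Ftl1, the light chain, reached 1058, 843 and 902 CPM in WT and 1307, 1424 and 1014 CPM in KO replicates 1 to 3, with a log2 fold change of 0.40 (adjusted p = 0.769, edgeR). The ratio of Ftl1 to Fth1 was 1.88, 1.74 and 1.85 in WT and 2.15, 2.06 and 2.16 in KO replicates 1 to 3, without overlap and with KO replicate 3 among the highest, which was also seen only after the values were known and was not tested.

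**Figure D2:**
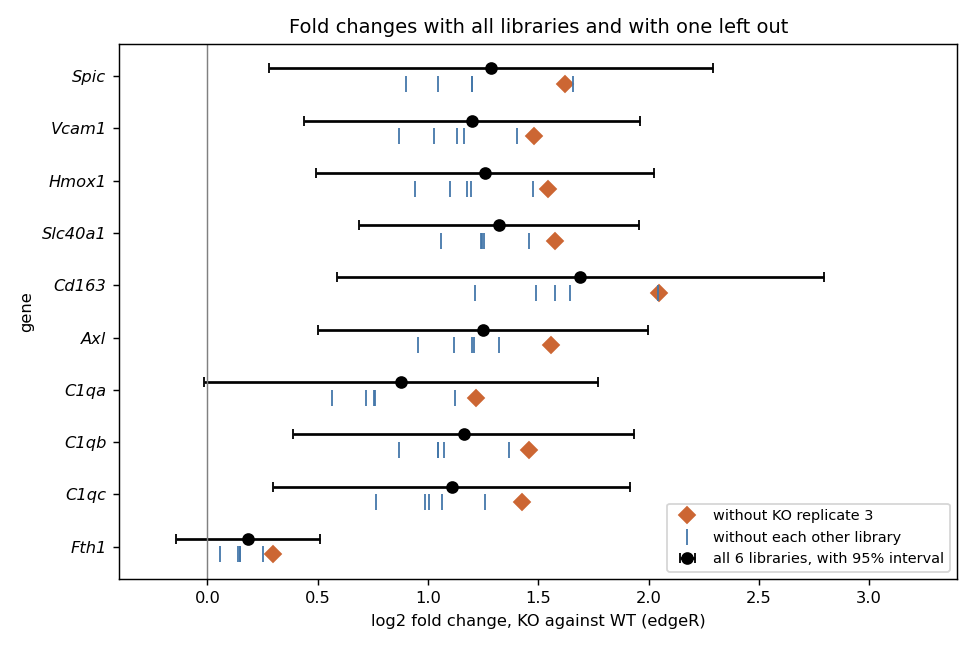
Fold changes of KO against WT on the log2 scale (x axis) for the 10 genes, from edgeR, with all 6 libraries and their 95% intervals in black, without KO replicate 3 as orange diamonds, and without each other library as blue ticks. All points lie above 0, the interval with all libraries spans 0 for C1qa and Fth1 alone, and Fth1 lies lowest at 0.19.

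The median log2 fold change of the 10 genes was 1.22, against 0.0030 for all genes tested, and all 10 were above 0, against 50.6% of all genes. When libraries were left out one at a time, the median was lowest without KO replicate 2, at 0.89, and highest without KO replicate 3, at 1.51. Within WT the genes also differed between libraries, with replicate 1 the highest WT library for 9 of 10 genes and coefficients of variation between 8.55% for Fth1 and 41.6% for Spic. In KO libraries the coefficients of variation lay between 18.9% for Fth1 and 58.9% for Cd163. For each of the 10 genes the SD in KO libraries was larger than that in WT libraries.

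Other genes that mark splenic macrophages also had positive estimates. Of the 16 listed, 14 were tested and all 14 were higher in KO, against 50.6% of all genes, with a median log2 fold change of 0.91. None passed an adjusted p-value of 0.05 (edgeR). The unadjusted p-value was under 0.05 for 10, all higher in KO, against 4.14% of all genes, and DESeq2 called 4 as higher, against 0.423%. The count of 10 was 4 without WT replicate 2, 5 without WT replicate 3, 6 without KO replicate 1 and 4 without KO replicate 2. It was 13 without WT replicate 1 and 14 without KO replicate 3. Mrc1, the mannose receptor CD206, reached 56.9, 47.1 and 39.7 CPM in WT and 131, 161 and 61.5 CPM in KO replicates 1 to 3, with a log2 fold change of 1.27 (adjusted p = 0.540, edgeR). The ranges of Mrc1 did not overlap, nor did those of Itgad, which encodes the integrin chain CD11d of red pulp macrophages, and of Nr1h3, the liver X receptor alpha, with estimates of 1.30 for both on the log2 scale (adjusted p = 0.604 and 0.494, edgeR). All KO libraries lay above all WT libraries for these 3 of the 14 genes, against 6.71% of all genes. Cd5l and Treml4 differed by 1.26 and 0.86 on the same scale (adjusted p = 0.624 and 0.716, edgeR). For Csf1r, the receptor that macrophages and monocytes need to survive, and Sirpa, which restrains the uptake of cells that carry CD47, the estimates were 0.80 and 0.78 (adjusted p = 0.786 for both, edgeR), and 1.11 and 1.08 without KO replicate 3 (adjusted p = 0.0503 and 0.0612, edgeR). Without KO replicate 3, 6 of the 14 passed the adjusted threshold, all higher in KO, against 0.647% of all genes. Adgre1, Mrc1, Itgad, Nr1h3 and Maf were among them. Of the genes named for other macrophages, Vsig4 had at most 2 counts and Cd209b, a marker of the marginal zone, at most 6 counts in any library. Marco and Siglec1, also known from macrophages of the marginal zone, passed the filter, with estimates of 0.66 and 1.43 on the log2 scale (adjusted p = 0.816 and 0.745, edgeR).

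The levels of the 10 genes relative to other macrophage genes were then compared within each library, a comparison that was added after the values were seen and has no test. Relative to Mrc1, several of the genes varied little across the libraries. Hmox1 lay between 2.34 and 2.75 times the CPM of Mrc1, and Vcam1 between 2.24 and 2.63 times, in the same 6 libraries in which Mrc1 itself ran from 39.7 to 161 CPM. None of the 10 genes was higher in all KO than in all WT libraries relative to Mrc1, against 0.0845% of all genes tested. C1qa, C1qc and Fth1 were lower in all KO libraries, as were 58.7% of all genes, Mrc1 itself being higher in all KO libraries. Relative to Adgre1, which encodes the macrophage surface protein F4/80, 7 of the 10 genes were higher in all KO libraries, replicate 3 included, while Cd163, C1qa and Fth1 overlapped. Slc40a1, for example, was at 1.43, 1.67 and 1.37 times Adgre1 in WT and 2.0, 1.97 and 2.53 times in KO replicates 1 to 3. The count depended on the gene chosen, and over the 14 tested macrophage genes as reference it lay between 0 and 7 with a median of 2. Of all genes tested, 0.453% were higher in all KO libraries relative to Adgre1.

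**Figure D3:**
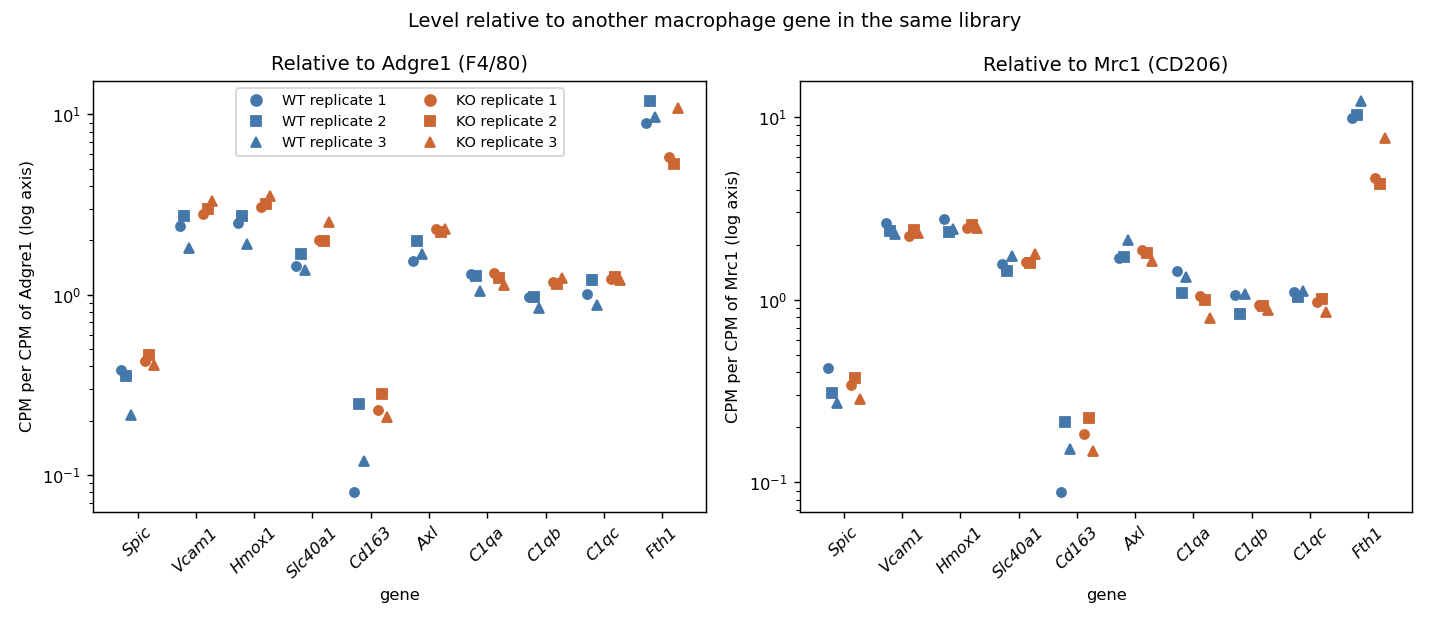
CPM of the 10 genes divided by the CPM of Adgre1 (left) or of Mrc1 (right) in the same library, on a log axis, for the 3 WT and 3 KO libraries. Relative to Adgre1 the KO points lie above all WT points for 7 genes, and relative to Mrc1 for none, with Vcam1 and Hmox1 nearly level.

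Genes of heme and iron handling that many cell types use had smaller median estimates. Of the 12 heme handling genes tested, 8 were higher in KO, against 50.6% of all genes, and for 1 the unadjusted p-value was under 0.05, against 4.14% that were higher at that level. Their median log2 fold change was 0.17, and was 0.015 without KO replicate 2, 0.089 without WT replicate 2 and 0.10 without WT replicate 3. The gene with the unadjusted p-value under 0.05 was Slc48a1, the transporter that brings heme out of the lysosome, with a log2 fold change of 0.49 (adjusted p = 0.786, edgeR). Lrp1, the receptor for heme bound to hemopexin, had 0.76 (adjusted p = 0.786, edgeR) and passed the threshold without KO replicate 3 (1.07, adjusted p = 0.0222, edgeR). The count of 1 was 4 without KO replicate 3, 1 without WT replicate 1 and 0 without any one of the other 4 libraries. Keap1 and Mafk, which take part in the control of the antioxidant response, had -0.017 and 0.059 (adjusted p = 0.983 and 0.948, edgeR).

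Of the 17 iron handling genes tested, 13 were higher in KO, against 50.6% of all genes, with a median of 0.15, and for 4, all higher, the unadjusted p-value was under 0.05, against 4.14%. The count of 4 was 1 without WT replicate 2, WT replicate 3, KO replicate 1 or KO replicate 2, and 5 without WT replicate 1 or KO replicate 3. Besides Ftl1 the 4 genes were Trf, which encodes transferrin, Slc11a1, the metal transporter NRAMP1 of phagosomes, and Slc25a37, which brings iron into mitochondria. Trf and Slc11a1 differed by 0.93 and 0.82 on the log2 scale (adjusted p = 0.738 and 0.683, edgeR), and both passed the threshold without KO replicate 3, as did Hfe. These were 3 of the 17, all higher in KO, against 0.647% of all genes. Slc25a37 had 0.46 (adjusted p = 0.786, edgeR) and was highest in KO replicate 2, at 207 CPM, the library with the most Hbb-bs RNA. Pcbp1 and Pcbp2, which hand iron to ferritin, had -0.10 and -0.10 (adjusted p = 0.866 and 0.870, edgeR). Hamp, the gene of hepcidin, and Heph had at most 1 count in any library.

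The partners of Axl in the uptake of dying cells were mixed. Of the 9 genes tested for uptake of apoptotic cells, 7 were higher in KO, against 50.6% of all genes, and for 4, all higher, the unadjusted p-value was under 0.05, against 4.14%. Their median log2 fold change was 0.42, and was 0.18 without KO replicate 2 and 0.65 without WT replicate 1. Mertk, the related receptor kinase, reached 19.5, 14.0 and 17.8 CPM in WT and 52.5, 61.7 and 21.2 CPM in KO replicates 1 to 3 (log2 fold change 1.38, adjusted p = 0.556, edgeR). Stab2 and Gas6 also did not overlap between genotypes, at 1.47 and 1.40 on the log2 scale (adjusted p = 0.494 and 0.683, edgeR), but Gas6 had at most 20 counts in any library. With Mertk, all KO libraries lay above all WT libraries for 3 of the 9, against 6.71% of all genes. Timd4, a receptor for phosphatidylserine, had 1.46 (adjusted p = 0.712, edgeR), and Cd36 and Itgav had 0.42 and 0.26 (adjusted p = 0.816 and 0.816, edgeR). Without KO replicate 3, 3 of the 9 were called, all higher in KO, namely Mertk, Timd4 and Stab2, against 0.647% of all genes.

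Of the other complement genes, 7 of 11 were tested, all 7 were higher in KO, against 50.6% of all genes, with a median of 0.65 that was 0.36 without KO replicate 1 and 0.42 without WT replicate 2. For 2 the unadjusted p-value was under 0.05, against 4.14% that were higher at that level, namely C2 and Cfp, the gene of properdin, at 1.05 and 0.72 (adjusted p = 0.786 for both, edgeR). The count of 2 was 6 without KO replicate 3, 1 without WT replicate 1 and 0 without any one of the other 4 libraries. C1ra and C1s1, whose products are the proteases that join C1q in the C1 complex, had at most 13 and 4 counts in any library. The integrin genes whose products bind VCAM1 did not follow Vcam1. Itga4 and Itgb1 differed by -0.00067 and 0.090 on the log2 scale (adjusted p = 0.999 and 0.906, edgeR), and Itgb7 had -0.42 (adjusted p = 0.768, edgeR). The unadjusted p-value of Itgb7, lower in KO, was 0.0234 (edgeR). It was not under 0.05 without WT replicate 2, WT replicate 3 or KO replicate 2. The estimate of Itgb1 without KO replicate 3 turned to -0.049, and Itga4 and Itgb7 had -0.020 and -0.54 (adjusted p = 0.897, 0.960 and 0.218, edgeR).

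Markers of other cell types varied between the same libraries, and their part in the results above was not tested. The 7 CD8+ T cell markers summed to 3683, 5049 and 4651 CPM in WT and 3467, 2637 and 4776 CPM in KO replicates 1 to 3, so that the KO libraries with the highest levels of the 10 genes had the lowest of these. None of these T cell markers had an unadjusted p-value under 0.05 with all libraries, and all 7 did, lower in KO, without KO replicate 3, where 14.1% of all genes did so in either direction. In that fit none of the 7 passed the adjusted threshold (edgeR). The unadjusted p-value in the same fit was under 0.05 for 5 of 8 monocyte, 3 of 5 B cell, 2 of 12 erythroid and 1 of 7 neutrophil markers. Unlike the T cell markers, 4 of these 5 monocyte markers and all of these B cell, erythroid and neutrophil markers were higher in KO. The 5 B cell markers summed to 1985, 1167 and 1135 CPM in WT and 2097, 2346 and 991 CPM in KO, and the 7 neutrophil markers to 697, 218 and 178 CPM in WT and 711, 816 and 270 CPM in KO. In both lists WT replicate 1 lay near KO replicates 1 and 2. The 10 genes summed to 1288, 1018 and 985 CPM in WT and 2128, 2600 and 1156 CPM in KO replicates 1 to 3. Here too WT replicate 1 was the highest WT library.

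The 8 monocyte markers summed to 1596, 944 and 998 CPM in WT and 1375, 1437 and 955 CPM in KO replicates 1 to 3, and WT replicate 1 was the highest library. On the log2 scale Lyz2 and Itgam differed by 0.22 and 0.41, and Ly6c2 by -0.24 (adjusted p = 0.937, 0.870 and 0.870, edgeR). These values without KO replicate 3 were 0.56, 0.70 and -0.58 (adjusted p = 0.493, 0.243 and 0.0814, edgeR). The 9 markers of CD8a+ conventional dendritic cells summed to between 326 and 378 CPM in WT and between 385 and 437 CPM in KO libraries, here with KO replicate 3 the highest. Among them Cadm1 and Flt3 were 0.79 and 0.49 apart on the log2 scale (adjusted p = 0.274 and 0.519, edgeR), and Cadm1 passed the threshold without KO replicate 3 (0.87, adjusted p = 0.0282, edgeR). Of these 9 markers, 5 had an unadjusted p-value under 0.05, all higher in KO, against 4.14% of all genes, and this count was 2 (Cadm1 and Flt3) without KO replicate 3. For 4 of the 9 all KO libraries lay above all WT libraries, against 6.71% of all genes. None of the 9 passed the adjusted threshold with all 6 libraries (edgeR), and Itgae had -0.19, or -0.37 without KO replicate 3. The part of these markers in the results was not tested.

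The 12 erythroid markers summed to 889, 584 and 254 CPM in WT and 463, 2791 and 871 CPM in KO replicates 1 to 3. These markers differed between KO replicates 1 and 2, and the 10 genes were high in both. Hbb-bs reached 255, 161 and 67.0 CPM in WT and 157, 929 and 280 CPM in KO, with a log2 fold change of 1.48 (adjusted p = 0.797, edgeR). Hmox1 reached 321, 411 and 152 CPM in KO replicates 1 to 3. The part of erythroid cells in these results was not tested.

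**Figure D4:**
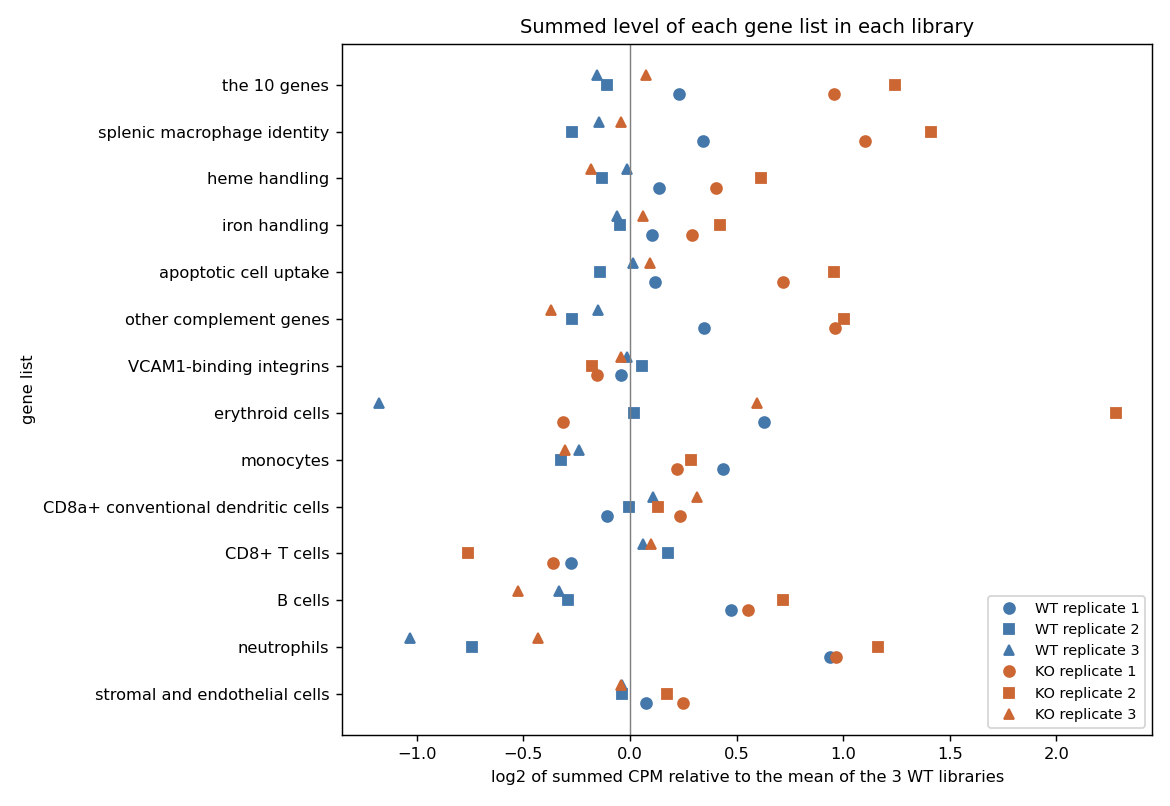
Summed CPM of the 10 genes, the 6 pathway lists and the 7 cell type lists in each library, as log2 of the ratio to the mean of the WT libraries (x axis), with blue for WT, orange for KO and the symbol giving the replicate number. KO replicates 1 and 2 lie to the right of all WT libraries for the 10 genes, for each pathway list but the integrins, and for the dendritic cell, B cell, neutrophil and stromal markers, whereas erythroid markers are high in KO replicate 2 alone, and CD8+ T cell markers are lowest in these KO libraries.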

How the data were processed

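The RNA of 3 WT and 3 KO libraries was compared, with groups taken from the sample titles. The values deposited by the authors are expected counts for Ensembl genes, some of them fractional, and show no sign of scaling. The build is GRCm38 (mm10) per the submitters' processing notes, and the aligner, counting program, annotation and use of strand are not given in the sources used here. Symbols were matched to 98.75% of the 44678 identifiers. CPM were computed from the deposited counts and the library totals.

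Counts were rounded and compared by the quasi-likelihood test of edgeR 4.0.16 in R 4.3.3, with TMM factors between 0.989 and 1.01, filterByExpr (minimum count 10, minimum total 15) and Benjamini-Hochberg adjustment over 13024 genes. Alternatives were DESeq2 1.42.0, limma 3.58.1 (voom), other scaling factors, other filters, the replicate number as a block, and each library left out in turn. The procedure was tested on simulated counts. Levels between genes were compared per kb of exon (GENCODE M21). The 10 genes, the gene lists and the tests were chosen with earlier results of these data known. Named genes are all 10 genes and, in each other list, the 3 with the highest mean CPM, any with an adjusted p-value under 0.05 and up to 5 with the smallest unadjusted p-value under 0.05. Genes named outside it were chosen after their values were seen. The labels do not say whether the numbers 1 to 3 shared by WT and KO pair mice. A result for 1 listed gene is not reported here.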

Additional observations from a re-analysis of the deposited data

How the results depend on the processing

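All 10 genes kept a positive log2 fold change in each of the 13 alternatives. Libraries of a genotype differed by more than counting error (chi-square per degree of freedom from 6.55 to 23.5), and 3 libraries a group limit what could be called. DESeq2 called 58 genes in all and 2 of the 10, Slc40a1 (1.32) and Cd163 (1.69), and 6 pathway genes, of which 4 were splenic macrophage genes and 2 were genes for uptake of apoptotic cells. Without a filter on low counts 12 genes were called and with the replicate block 9. The block called 0 of the 10 genes and 0 of the pathway genes, as without it. Same-numbered libraries deviated with correlations of -0.0066, -0.22 and 0.13, so that the numbers are not taken to pair them.

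With 1 library left out, the genes called ran from 2 to 94, those of the 10 from 0 to 8, and those of the pathway lists from 0 to 14, of which 0 to 6 were splenic macrophage, 0 to 1 heme handling, 0 to 3 iron handling, 0 to 3 apoptotic cell uptake and 0 to 1 other complement genes. Each highest number came without KO replicate 3, and the fits without any other library called 0 of the 10 genes. The log2 fold change then ran from 0.90 to 1.66 for Spic, 0.87 to 1.48 for Vcam1, 0.94 to 1.54 for Hmox1, 1.06 to 1.58 for Slc40a1, 1.21 to 2.05 for Cd163, 0.96 to 1.56 for Axl, 0.57 to 1.22 for C1qa, 0.87 to 1.46 for C1qb, 0.77 to 1.43 for C1qc and 0.058 (without KO replicate 2) to 0.30 (without KO replicate 3) for Fth1. The median of the VCAM1-binding integrins ran from -0.0995 to 0.034. The cause was not tested.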
